A study of Arabidopsis thaliana with 16 samples.

Results

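Transcript levels of 6 loci listed as pentatricopeptide repeat genes were compared between wild-type (WT) Arabidopsis thaliana and the psag mutant. They were taken by a rule that names each locus: AT4G25270 (OTP70), AT5G55740 (CRR21), AT2G46050, AT5G40030, AT4G04370 and AT5G15280. All 6 had a probe assigned to 1 gene, among 691 such genes and 3439 probes in all. The loci were picked with earlier psag against WT results of these arrays in view, so their genotype differences are given as a description, with no p-value.

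Pentatricopeptide repeat proteins are encoded in the nucleus and imported into plastids or mitochondria. Each carries a row of short helical repeats that bind a particular stretch of organelle RNA, and the proteins act there in splicing, C-to-U editing, cleavage, stabilisation or translation of single transcripts. The family is very large in land plants, and mutants of single members often lose a single photosynthetic or respiratory complex. OTP70 is known for its part in splicing of the plastid rpoC1 transcript, which encodes a subunit of the plastid RNA polymerase. CRR21 is required for editing of the plastid ndhD transcript, which encodes a subunit of the NADH dehydrogenase-like (NDH) complex of the thylakoid. The tables used here give no name or function for the other 4 loci, and none is given below. That they encode such proteins rests on the rule alone, and for AT5G40030 this assignment was doubtful, so the counts and medians over the 6 are also given without it.

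Both genotypes were of ecotype Columbia 0, and psag is without PSI-G, one of the small membrane proteins of photosystem I. Total RNA was measured on 8 WT and 8 psag arrays, numbered 1 to 8 in each genotype. The labels do not name the psag allele or the number of lines. They give no tissue, age or growth condition, and do not tell how many plants stand behind the replicates, so the spread between them may be technical. Of 13 marker loci for senescence, roots and non-green plastids, seeds and epidermis, 0 had a single-gene probe, so tissue makeup was not examined. In such bulk RNA, fewer cells of a type and less RNA per cell cannot be told apart.

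The deposited values are intensities on a linear scale from 0 to 100. The sum over an array ranged from 2314 to 3460. Psag replicates 7 and 8 stood apart from the rest: their sums were 2314 and 2367, against at least 2967 on the other arrays. Adjacent replicate numbers (1 and 2, 3 and 4, 5 and 6, 7 and 8) were averaged after log2 transformation and quantile normalization, which left 4 measurements per genotype. The averaged psag replicates 7 and 8 correlated with the other 7 measurements at 0.819 to 0.852 across probes, where those 7 correlated with each other at 0.934 to 0.980. The genotype difference of each of the 6 genes is therefore given with and without this pair, from the same normalized values.

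OTP70 had higher values in psag. Its deposited intensity in WT was 0.466 at the lowest, 0.543 at the median and 0.619 at the highest. In psag the lowest was 0.568, the median 1.03 and the highest 1.21. Psag replicates 1 to 6 lay between 1.01 and 1.21, above every WT array, while replicates 7 and 8, at 0.575 and 0.568, lay inside the WT range. On those 2 arrays the intensities as a whole were lower, and normalization changed their order relative to WT. OTP70 was brighter than 80.3% to 88.3% of the probes of its array in psag and than 68.9% to 77.0% in WT, so by rank within the array the genotypes did not overlap. The normalized log2 level was -0.78 ± 0.12 over the WT and -0.03 ± 0.25 over the psag measurements (SD, n = 4 per genotype). The difference of 0.75 ± 0.14 (SE) corresponds to a level 1.69-fold higher in psag. It was 0.84 for psag replicates 1 to 6 and 0.48 for replicates 7 and 8.

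CRR21 also had higher values in psag, with more spread between arrays. Its intensity in WT was 0.393 at the lowest, 0.516 at the median and 0.610 at the highest. In psag the corresponding values were 0.300, 0.725 and 1.11. Replicates 1 and 2 were the highest, at 1.10 and 1.11, and 7 of the 8 psag arrays were above all WT arrays. The exception was psag replicate 7, which at 0.300 was below all of WT, while its neighbour, replicate 8, was at 0.719. These adjacent arrays differed by 1.09 in normalized log2 level, more than at 93.0% of probes, and their mean of -0.52 describes neither of them. The log2 level over the averaged measurements was -0.88 ± 0.25 over the WT and -0.37 ± 0.28 over the psag measurements (SD, n = 4 per genotype). The difference was 0.51 ± 0.18 (SE), a level 1.43-fold higher in psag, and 0.56 without psag replicates 7 and 8.

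AT2G46050 had lower values in psag. In WT its intensity was 0.578 at the lowest, 0.697 at the median and 0.854 at the highest. In psag it was 0.160, 0.503 and 0.674 in the same order, with 6 of 8 arrays below every WT array. Replicates 7 and 8 were the lowest, at 0.199 and 0.160, and replicates 1 to 6 lay between 0.447 and 0.674. The log2 level was -0.45 ± 0.17 over the WT and -1.11 ± 0.39 over the psag measurements (SD, n = 4 per genotype). The difference of -0.66 ± 0.20 (SE) corresponds to a level 1.58-fold higher in WT. It was -0.47 for psag replicates 1 to 6, 1.38-fold, and -1.24 for replicates 7 and 8. For these first 3 genes the averaged, quantile-normalized measurements of the genotypes did not overlap, with or without that pair. Of all probes, 10.0% did not overlap with the pair and 17.1% without it. For CRR21 the highest WT measurement, -0.56, was close to the lowest of psag, -0.53. With median centring CRR21 overlapped, and without normalization all 3 did.

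**Figure D1:**
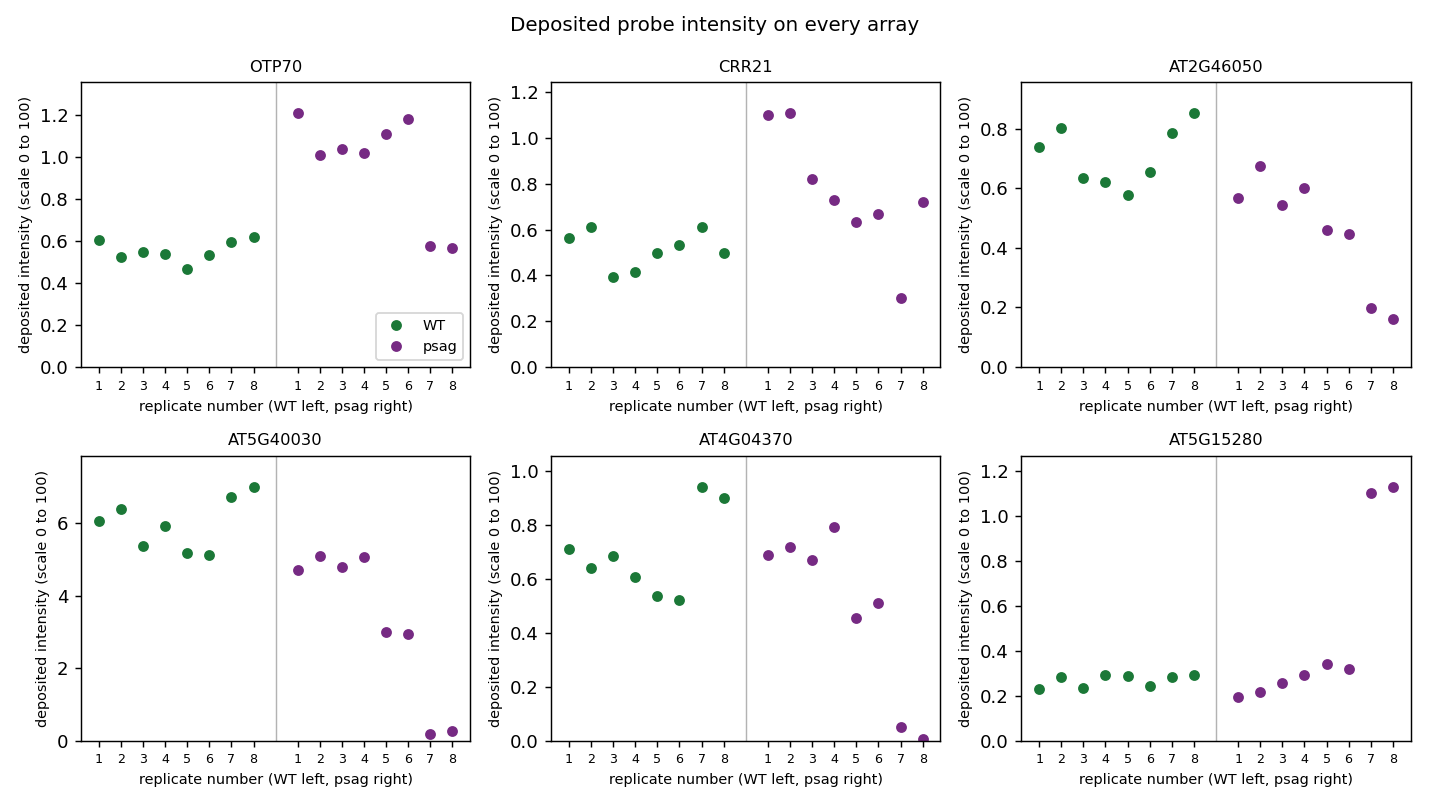
Deposited intensity (scale 0 to 100, linear axis from 0 with its own range for each gene) of the 6 genes on each array, with WT replicates 1 to 8 on the left and psag replicates 1 to 8 on the right of each panel. OTP70 and CRR21 have most psag points above WT, and the points of psag replicates 7 and 8 stand apart for AT5G40030, AT4G04370 and AT5G15280.

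For the other 3 loci, psag replicates 7 and 8 set the size of the difference. AT5G40030 had an intensity of 5.14 at the lowest, 6.0 at the median and 7.02 at the highest in WT. In psag it was 0.172, 3.86 and 5.11, and by deposited intensity all 8 psag arrays were below all WT arrays, narrowly at 5.11 against 5.14. After normalization the highest psag array and the lowest WT array were both at 2.32 on the log2 scale. By rank both genotypes also met, at 97.4% of the probes of the array being dimmer. The psag arrays were at unequal levels: replicates 1 to 4 were at 4.72 to 5.11, replicates 5 and 6 at 3.0 and 2.94, and replicates 7 and 8 at 0.172 and 0.253. The log2 level was 2.55 ± 0.27 over the WT and 1.16 ± 1.80 over the psag measurements (SD, n = 4 per genotype), a difference of -1.40 ± 0.85 (SE). For psag replicates 1 to 6 it was -0.51, a level 1.42-fold higher in WT, and for replicates 7 and 8 it was -4.07.

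AT4G04370 was at 0.522, 0.663 and 0.942 in WT (lowest, median and highest intensity) and at 0.00522, 0.589 and 0.792 in psag. Psag replicates 1 to 4, at 0.669 to 0.792, lay inside the WT range, and replicates 5 and 6, at 0.455 and 0.509, just below it. Replicates 7 and 8 were at 0.0518 and 0.00522, close to or below the pseudocount of 0.0407, so the size of their log2 difference is set in part by that constant. The log2 level was -0.49 ± 0.23 over the WT and -1.43 ± 1.45 over the psag measurements (SD, n = 4 per genotype). The difference of -0.94 ± 0.69 (SE) became -0.21 without psag replicates 7 and 8, and the genotypes overlapped in both cases.

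AT5G15280 went the other way on the same arrays. In WT its intensity was 0.231 at the lowest, 0.282 at the median and 0.294 at the highest. Psag replicates 1 to 6 were at 0.195 to 0.342, on both sides of that range, and replicates 7 and 8 were at 1.10 and 1.13. The log2 level was -1.70 ± 0.19 over the WT and -1.29 ± 1.30 over the psag measurements (SD, n = 4 per genotype). The difference of 0.41 ± 0.61 (SE) became -0.20 without psag replicates 7 and 8, so that its direction rested on them.

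**Figure D2:**
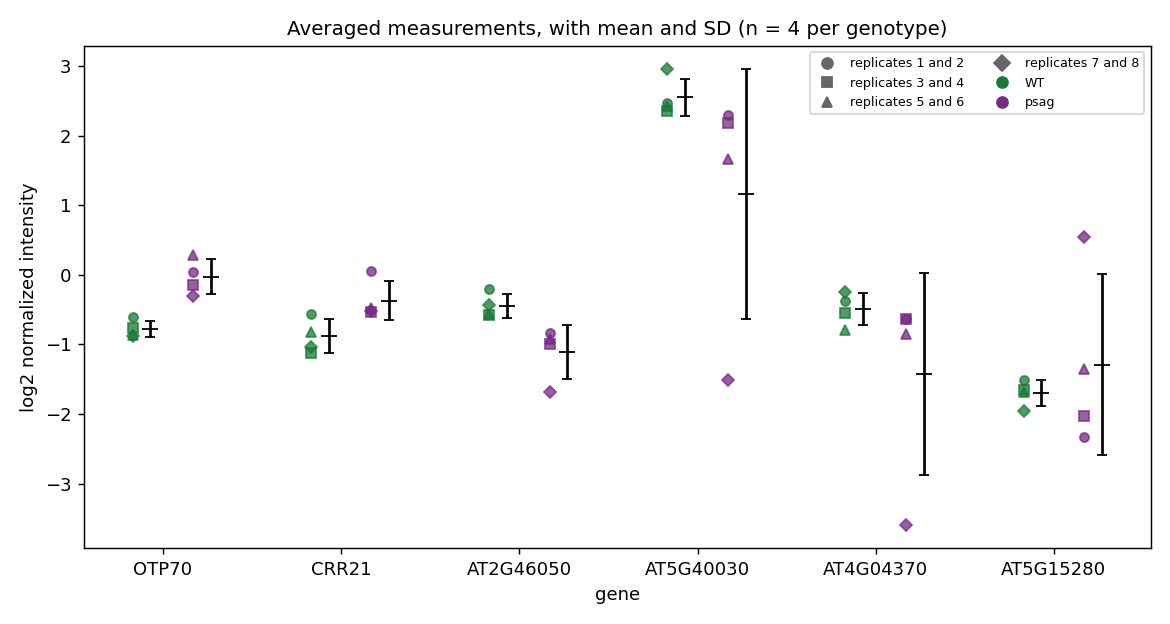
Normalized log2 intensity of the 6 genes, 1 point per averaged pair of adjacent replicates (marker shape) and genotype (colour), with the mean and SD in black beside the points (n = 4 per genotype). The psag SD is 0.25 to 0.39 for OTP70, CRR21 and AT2G46050 and 1.30 to 1.80 for the other 3, whose point for psag replicates 7 and 8 lies far from the rest.

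Replicates 7 and 8 left the other psag measurements by amounts that differed widely between the 6 genes. The departure from the mean of psag replicates 1 to 6 was -3.56 on the log2 scale for AT5G40030, an 11.8-fold lower level. It was -2.90 for AT4G04370 and 2.46 for AT5G15280. At these 3 loci it was larger in size than at 99.4%, 98.6% and 97.1% of all probes. For OTP70, CRR21 and AT2G46050 it was -0.36, -0.21 and -0.77, against a median size of 0.59 over all probes. The arrays of the pair differed by 1.09 for CRR21, so its small mean departure describes neither of them. Both arrays of the pair shared the departure at AT5G15280, where they differed by 0.01 on the log2 scale, at AT5G40030, where they differed by 0.49, and at AT4G04370, where both were far below the rest and 1.05 apart. The part that the lower intensities of these arrays have in these values was not tested.

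**Figure D3:**
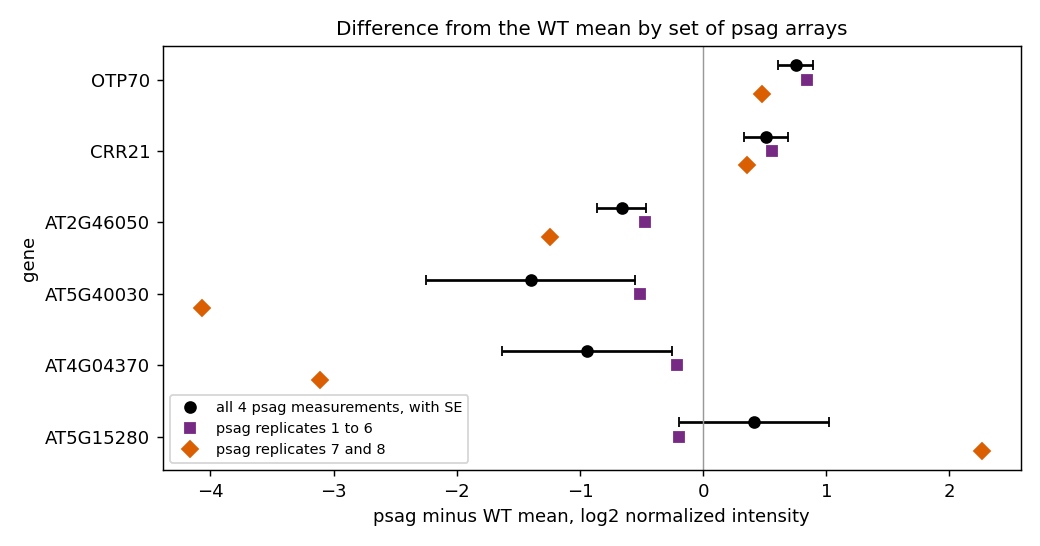
Difference from the WT mean in normalized log2 intensity for all 4 psag measurements (circle, with SE), for psag replicates 1 to 6 (square) and for psag replicates 7 and 8 (diamond). OTP70 and CRR21 lie above 0 and AT2G46050, AT5G40030 and AT4G04370 below 0 in all 3 sets, and AT5G15280 changes sign between replicates 1 to 6 (-0.20) and replicates 7 and 8 (2.26).

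The loci were picked on this contrast, so the counts that follow describe them and nothing is read from any share. Across the 6 genes 3 were higher and 3 lower in psag, with a median difference of -0.12 on the log2 scale, where the median over all 3438 tested probes was 0.00. That median lay between genes on either side of 0 and moved with the set: without AT5G40030 it was 0.41, with 3 higher and 2 lower. Without psag replicates 7 and 8 it was -0.21, with 2 of the 6 higher and 4 lower, where all probes had a median of -0.02. With both left out it was -0.20, with 2 higher and 3 lower. The averaged measurements did not overlap between genotypes for 4 of the 6, or for 3 of the 5 without AT5G40030, against 10.0% of all probes. Without psag replicates 7 and 8 these counts were again 4 of 6 and 3 of 5, against 17.1% of all probes. No call of the limma fit is given here for the single genes. Over all probes that fit called 0.320% at an adjusted p of 0.05 and 12.7% at the same unadjusted p. At the adjusted threshold it called 2.47% without psag replicates 7 and 8, 9.60% with 16 arrays as separate replicates, 3.29% with adjacent replicates as a random block and 8.35% with the 8 replicate numbers as a fixed block.

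How far the genotypes were separate depended on the scaling for some genes. Under quantile normalization 4 of the 6 did not overlap (10.0% of all probes), under median centring 3 (9.19%) and without normalization 1 (7.94%). Without AT5G40030 these counts were 3, 2 and 0 of 5. With median centring CRR21 overlapped, with WT measurements from -1.10 to -0.39 and psag from -0.64 to -0.12. Without normalization OTP70 and AT2G46050 overlapped as well, and only AT5G40030 stayed separate. Its groups were close there, with the lowest WT measurement at 2.38 and the highest of psag at 2.31. The sign of the mean difference was the same under all 3 scalings for each of the 6 genes.

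The median difference within an adjacent pair was 0.06 for OTP70 and AT5G40030, 0.08 for CRR21, 0.12 for AT4G04370, 0.13 for AT2G46050 and 0.16 for AT5G15280 on the log2 scale. Over all probes it was 0.15. Arrays of 1 genotype that were not adjacent, psag replicates 7 and 8 left out, differed by a median of 0.16 for OTP70, 0.18 for AT2G46050, 0.23 for AT4G04370, 0.33 for CRR21, 0.35 for AT5G15280 and 0.46 for AT5G40030. The spread within WT was below that of most probes for each of these genes. The SD over the 4 WT measurements was larger than that of 13.3% of probes for OTP70 and of 45.0% for AT5G40030. The other 4 genes lay between. In psag the SD exceeded that of 31.9% to 52.2% of probes for OTP70, CRR21 and AT2G46050 and of 96.9% to 99.4% for the others.

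Between the genes, array-to-array levels correlated in 2 directions, which is a description over 16 arrays that share their loading and normalization. OTP70 and CRR21 correlated over arrays with r = 0.65, and with r = 0.75 over the 14 arrays without psag replicates 7 and 8. AT2G46050, AT5G40030 and AT4G04370 correlated with each other at 0.86 to 0.96, and at 0.63 to 0.77 without that pair. OTP70 against AT2G46050 gave r = -0.52, and -0.76 without the pair. AT5G15280 against AT5G40030 gave r = -0.93, which was -0.34 without the pair. Against AT4G04370 it gave r = -0.91, and -0.21 without the pair. Against AT2G46050 it gave r = -0.68, and 0.28 without the pair, so most of these relations rested on those 2 arrays. The genotype difference itself enters all of these values.

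Among 585 other single-gene probes listed at 0 on at most 8 arrays, those most like each gene over the 16 arrays were found by Pearson's r. The genotype difference enters r, so r is also given over deviations from each genotype's mean, with psag replicates 7 and 8 kept. AT5G11650 and AT4G27250 were closest to OTP70, both with r = 0.88, and with r = 0.89 and 0.96 without psag replicates 7 and 8. Over deviations these were 0.45 and 0.70. AT3G07790 (r = 0.73) and AT5G11650 (r = 0.71) were closest to CRR21, with r = 0.88 and 0.80 without that pair, and 0.46 and 0.39 over deviations. AT3G20150 and AT2G21720 were closest to AT2G46050, both with r = 0.92, with r = 0.80 and 0.82 without it, and 0.85 and 0.86 over deviations. As for AT2G46050, the likeness of the remaining 3 was higher with the pair than without. AT4G13680 and AT1G50390 had r = 0.99 with AT5G40030 and 0.85 without the pair. AT1G13370 and AT1G16080 had r = 0.98 and 0.97 with AT4G04370, and 0.66 and 0.41 without it. AT3G26580 and AT4G32340 had r = 0.98 and 0.93 with AT5G15280, and 0.89 and 0.40 without it. Over deviations, which still hold the pair, these last 6 values were 0.97 to 0.99.

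Few other genes of the lists used could be set beside these. Of a fixed list of 28 loci taken as pentatricopeptide repeat genes, 8 had a probe of their own. These were the 6 above, with the doubtful AT5G40030, and 2 more. The family is much larger than the list, and the gene table holds no product descriptions, so other measured members may be missed. OTP85, named for organelle transcript processing, was at 0 on 7 WT arrays and 6 psag arrays, and AT3G22690 was listed at 0 on all 16, so no change is given for them. Of 34 loci for organellar RNA polymerases and sigma factors, editing cofactors, nucleases, splicing factors and plastid ribonucleoproteins, 0 had a single-gene probe.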

How the data were processed

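The authors deposited 1 table of array intensity values for 3439 probes and 16 samples. The unit was inferred from the values, and the authors' scanning, background and scaling steps are not given in the sources used. Samples were grouped by their titles. Probe names come from the platform annotation at GEO, with symbols from a RefSeq gene table (TAIR10.1): 692 probes list 1 gene, of which 690 matched that table, 870 several and 1877 none. The build behind the probes is not given, so no positions are printed.

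Intensities were taken as log2(intensity + 0.0407), the pseudocount being the 5th percentile of positive values, so a fold change is on that scale and understates that of dim probes. Arrays were quantile normalized and adjacent replicates of a genotype averaged. For 1 locus with 2 probes the brighter was kept. Limma 3.58.1 in R 4.3.3 (lmFit, eBayes, Benjamini-Hochberg, threshold 0.05) was fitted to 3438 probes and tested on simulated data. Averaging follows earlier results on these arrays and is weakly founded: the deviations of adjacent replicates from their genotype mean correlated at 0.450 to 0.726 in psag but at -0.119 to 0.541 in WT. The number of arrays limits the precision.

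Members and lists were chosen with earlier results of these data known. Named genes were the 6 members, the measured genes of the lists and, per member, the 2 single-gene probes with the highest correlation. Alternatives changed the normalization, pseudocount, filter, replicate structure, variance model and left-out pairs.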

Additional observations from a re-analysis of the deposited data

Results flagged for a closer look

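Of 12 groups of 4 averaged measurements (6 genes in 2 genotypes), 3 held a measurement far from the other 3, where chance gives about 1 in 20, or 0.6. Some of these genes may have been picked for such values, so the number supports nothing. For AT4G04370 in psag the gap was 0.926 of the whole range, with replicates 7 and 8 at -3.60 and the others at -0.85 to -0.63 on the log2 scale. For AT5G40030 in psag it was 0.832, with the same pair at -1.51 and the others at 1.66 to 2.30. For CRR21 in psag it was 0.883, and here replicates 1 and 2 were the distant pair, at 0.05 against -0.53 to -0.47. The value for CRR21 also rests on the mean of psag replicates 7 and 8, which were at -1.07 and 0.02.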

How the results depend on the processing

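The count of 11 probes called over the whole array moved with most of the choices. The cause was not tested. It was 0 with median centring, 2 without probes listed at 0 throughout, 3 without the dimmest 25% of probes, 4 with limma-trend, 113 with neighbours as a random block, 330 with 16 separate arrays, and 0 to 85 when 1 averaged pair was left out. It was 0 when the pair left out was WT 1 and 2, WT 5 and 6, WT 7 and 8 or psag 1 and 2, and it was 1 without WT replicates 3 and 4, 2 and 4 without psag replicates 3 and 4 or 5 and 6, and 85 without psag replicates 7 and 8. A replicate block of averaged, like-numbered pairs gave 1 probe, and the 8 single numbers as a replicate block over 16 arrays gave 287. The labels do not say whether like numbers pair the samples, and the main fit took no such pairing. Deviations of averaged pairs correlated across genotypes at 8.8e-04 to 0.166, and of single arrays at 0.0514 to 0.206. In each genotype, 6 of 8 arrays were closest to the array of their own number in the other genotype. A pairing by number is therefore not excluded.

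The 6 loci were picked on this contrast, so nothing is read from their calls in limma. The list of pentatricopeptide repeat genes has 8 measured loci, the doubtful AT5G40030 among them. Of these, 0 were called with all measurements (0.320% of all probes). The number was 2 of 8 with 16 separate arrays (9.60%), the random block (3.29%) or the single numbers as a replicate block (8.35%). The first and last of these settings take adjacent arrays as independent replicates. Leaving out 1 pair gave 0 to 1, the 1 being without psag replicates 7 and 8 (2.47%). Every locus in these counts was among the 6 picked on this contrast. OTP85 and AT3G22690, the others of the list, were at 0 on most or all arrays. The counts thus describe the picked loci only, and nothing is read from them against the shares. AT5G40030 was in none of these counts of adjusted calls. The difference of AT5G15280 changed direction: it ranged from -0.20 to 0.76 over left-out pairs and was -0.20 without psag replicates 7 and 8. Over all 19 alternatives OTP70 ranged from 0.65 to 0.84, CRR21 from 0.37 to 0.62, AT2G46050 from -0.75 to -0.47, AT5G40030 from -1.78 to -0.51 and AT4G04370 from -1.20 to -0.21.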

Other observations

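CRR21 belongs to the genes named for the NDH complex, and the gene table names 3 more with a probe of their own, a list made after the data were seen. NdhS, a subunit of that complex, averaged 3.14 ± 0.19 over the WT and 3.40 ± 0.18 over the psag measurements (SD, n = 4 per genotype), and its difference of 0.26 ± 0.13 (SE) did not pass (limma, adjusted p = 0.474). Without psag replicates 7 and 8 that difference was 0.36. The genotypes overlapped with all measurements and did not without that pair, as for 17.1% of all probes. NdhN was at 0 on 7 WT arrays and 4 psag arrays, and CRR41 on 8 and 7, so no change is given for them.

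By name, 2 further genes act on organelle nucleic acids, also listed after the data were seen. OSB1, named for organellar single-stranded DNA binding, was at -1.50 ± 0.38 over the WT and -2.28 ± 0.54 over the psag measurements (SD, n = 4 per genotype). The difference of -0.77 ± 0.31 (SE) did not pass (limma, adjusted p = 0.361) and was -0.52 without psag replicates 7 and 8. The averaged measurements did not overlap with that pair, as for 10.0% of all probes, or without it, as for 17.1%. Single WT arrays were at unequal levels, with an intensity of 0.163 at the lowest, 0.271 at the median and 1.0 at the highest. AT5G55580, listed as mTERF9, of the family of mitochondrial transcription termination factors, differed by -0.02 ± 0.15 (SE; limma, adjusted p = 1.0), and by 0.04 without psag replicates 7 and 8.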
